A study of Mus musculus with 6 samples.

Results

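The genes of the cytosolic ribosome were compared between the cerebral cortices of young and old adult mice. Genes were taken by symbol, as Rpl or Rps followed by a number and optionally by a, x or l, together with Rplp0, Rplp1, Rplp2 and Rpsa. Of 55421 genes with a value, 83 met this rule, 51 of the large (60S) and 32 of the small (40S) subunit. The annotation types 80 of them as protein-coding and types Rpl6l, Rpl32l and Rps4l as processed pseudogenes. All libraries came from wild-type (WT) C57BL/6J males, 3 of 6 months (mice 10, 11 and 17) and 3 of 24 months (mice 2, 4 and 5), each mouse giving 1 library of microdissected cortex. The labels name no transgene. The mice ate the same standard diet and were killed by cervical dislocation under isoflurane. Libraries were made from 10 ng of total RNA with a low-input kit.

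The libraries held 29495379 to 36494240 counts on genes. At 24 months 40208 to 43561 genes had a count, and at 6 months 33974 to 35651. Counts were scaled by edgeR's TMM factors, which were 0.921 to 0.946 at 6 months and 1.04 to 1.10 at 24 months. The fold changes given are for 24 over 6 months, from edgeR's quasi-likelihood test, with p-values adjusted by the Benjamini-Hochberg method over the 32905 genes that had at least 10 counts in all. Markers of neurons (7 of 7), astrocytes (5 of 5) and oligodendrocytes (5 of 5) all had counts. Of the astrocyte markers, 4 had a log2 fold change below 0 with TMM, and 1 was higher (0.69) and passed 10% FDR. The summed oligodendrocyte markers reached 1171 to 3802 TMM-scaled CPM (counts relative to the scaled library total) at 24 months against 2221 to 3458 CPM at 6 months. The lowest of these values was that of the 24-month mouse 2. The summed neuron markers were 8197 to 9557 CPM at 6 months and 6067 to 7884 CPM at 24 months, without overlap. All 7 had a log2 fold change below 0 with TMM (median -0.31, and -0.12 with library totals), and Tubb3 and Syt1 passed 10% FDR. With TMM, 11039 of the 15761 genes with a mean of at least 1 CPM were below 0 too. Of these 15761 genes 32.5% had all 24-month mice below all 6-month mice, and 17.3% passed 10% FDR as lower. The part of the neuron marker difference in the ribosomal protein values was not tested. In bulk tissue, fewer cells of a type and less RNA per cell cannot be told apart.

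A ribosome joins a small subunit, which reads the mRNA, to a large subunit, which forms the peptide bonds, and each ribosomal protein is carried in a fixed number of copies. Vertebrate ribosomal protein mRNAs usually begin with a C followed by a run of pyrimidines, the 5′ terminal oligopyrimidine (TOP) element. Through it, mTOR signalling and the protein LARP1 set the translation of these mRNAs as a group. Neurons carry ribosomes in the cell body, dendrites and axons.

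The start-site sequences are shown because this element is usual in mRNAs of ribosomal proteins. The 30 bases around the start listed by RefSeq (GRCm38.p6, strand of the gene, 15 bases on either side) are given as examples. They cover some of the genes whose start opens with a long run and some abundant or changed genes without one. Capitals mark an unbroken run of C and T that starts with C exactly at the listed start and holds at least 5 bases.
Rpl15 (chr14:18270972-18271001, minus strand): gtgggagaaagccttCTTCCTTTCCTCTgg
Rpl35 (chr2:39005117-39005146, minus strand): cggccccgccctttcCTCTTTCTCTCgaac
Rps10 (chr17:27635230-27635259, minus strand): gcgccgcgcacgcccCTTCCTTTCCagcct
Rps18 (chr17:33955651-33955680, minus strand): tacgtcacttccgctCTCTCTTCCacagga
Rps6 (chr4:86857353-86857382, minus strand): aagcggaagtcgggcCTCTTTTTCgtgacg
Rpl38 (chr11:114668565-114668594, plus strand): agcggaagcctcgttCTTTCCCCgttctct
Rps27 (chr3:90213634-90213663, minus strand): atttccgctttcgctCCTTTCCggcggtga
Rpl4 (chr9:64173372-64173401, plus strand): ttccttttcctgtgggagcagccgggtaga
Rplp0 (chr5:115559452-115559481, plus strand): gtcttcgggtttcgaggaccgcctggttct
Rpl10 (chrX:74270801-74270830, plus strand): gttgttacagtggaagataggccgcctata
Rps13 (chr7:116334176-116334205, minus strand): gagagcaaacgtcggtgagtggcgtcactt

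The table of starts listed 73 starts for 61 of the 83 genes. A run of at least 5 bases stood at 14 of these starts (19.2%), each of a different gene, against 823 of all 32851 listed starts (2.51%). The search required the C at the listed base and used only the strand of the gene, so a start listed a few bases off hides a run. Rpl4 has the letters ttccttttcc just before its listed start. Among genes with a mean of at least 1 CPM, the 13 with a run had a median level of 82.2 TPM (the authors' count per exonic length, scaled to the same sum in each mouse) and a median log2 fold change of -0.11 (range -0.33 to 0.12). The 43 with a listed start and no run had a median of 53.2 TPM and a median log2 fold change of -0.13 (range -0.35 to 0.15). The ranges of change overlapped almost completely.

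The genes differed widely in level and little between mice. The 83 genes held 0.318% to 0.356% of all counts. Their median level was 60.7 TPM, with quartiles at 30.3 and 110 TPM, and 22 genes reached 100 TPM. The 5 most abundant genes supplied 27.2% of the summed TPM.

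**Figure D1:**
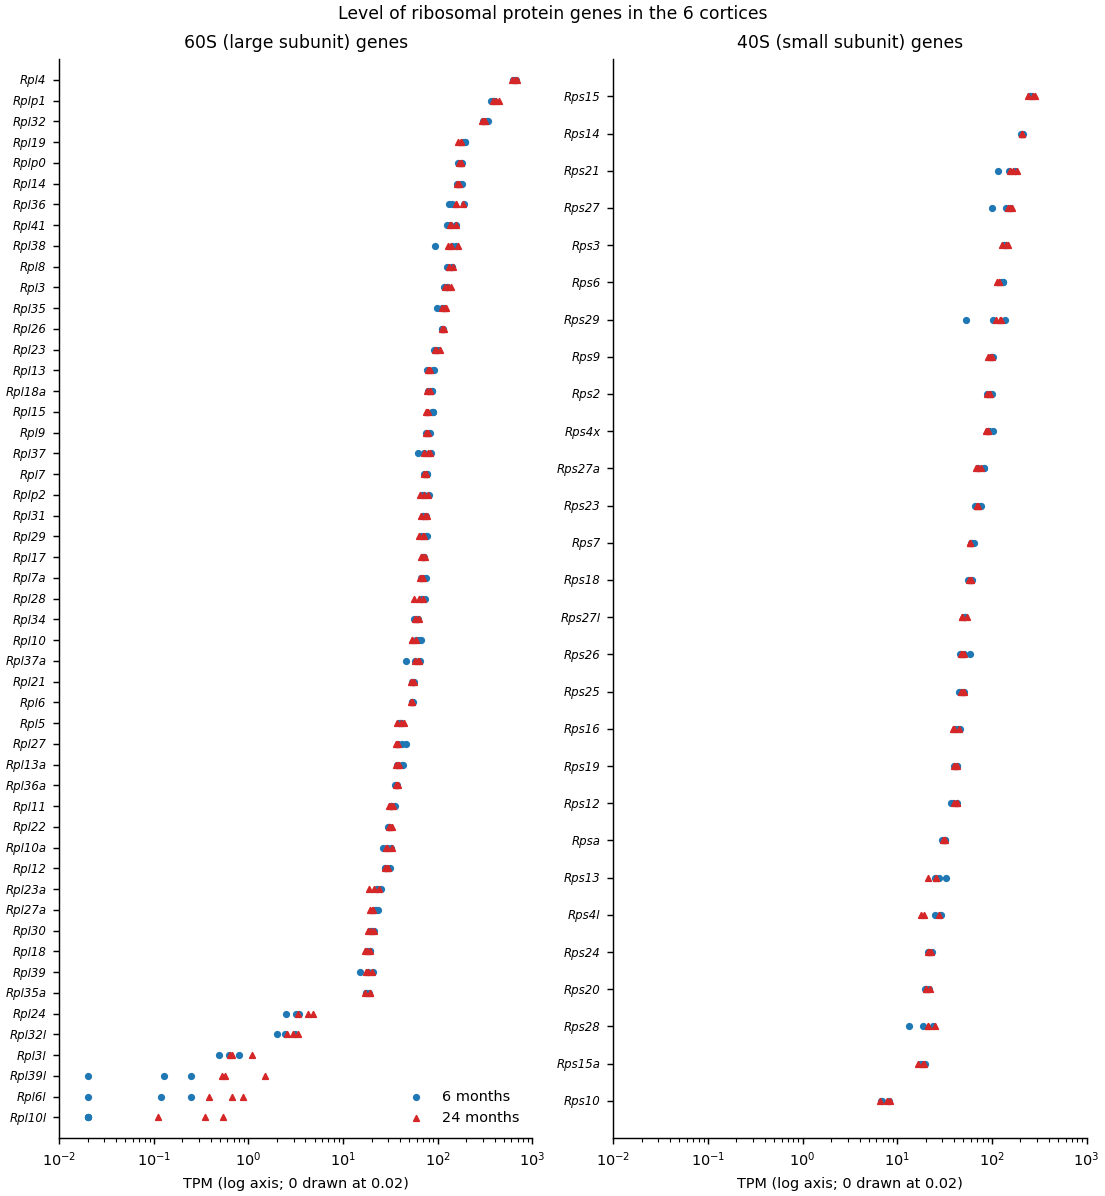
Level of the genes reported here in TPM (log axis) in the 3 mice of 6 months (circles) and the 3 of 24 months (triangles), with 60S genes on the left and 40S genes on the right. Rpl4 stands highest, and Rps29 shows the widest spread among the abundant genes because of the low point at 53.9 TPM in the 6-month mouse 17.

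Rpl4, a core protein that lines the exit tunnel of the large subunit, was the most abundant in each mouse. It had 653, 666 and 615 TPM in the 6-month mice 10, 11 and 17 and 658, 692 and 611 TPM in the 24-month mice 2, 4 and 5. The ages overlapped.

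Rplp1, an acidic protein of the P stalk that recruits elongation factors, came second with 380, 392 and 364 TPM at 6 months and 445, 381 and 415 TPM at 24 months. The ages overlapped here too. Rpl32 (mean 314 TPM) and Rps15 (mean 262 TPM) were also among the 5 highest.

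Neighbours in this order mostly could not be told apart. Of the 82 pairs of neighbours by mean TPM, 8 had ranges over the 6 mice that did not overlap. Among the 77 genes with a mean of at least 1 CPM, the highest mouse exceeded the lowest by a median of 1.17-fold, and in 70 of them by at most 1.5-fold. The median coefficient of variation of TMM-scaled CPM was 5.17% at 6 months and 4.78% at 24 months.

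At the low end stood 6 genes with a mean under 1 CPM. Rpl3l, which is known as the form of Rpl3 in heart and skeletal muscle, had 7 to 12 counts at 6 months and 9 to 16 at 24 months. The counts of Rpl32l were 7 to 12 at 6 months and 9 to 12 at 24 months. Rpl39l and Rpl10l are known from the testis and are described with the other paralogs, as is Rpl6l. Rpl24 had 24 to 34 counts in the young and 31 to 42 counts in the old mice, although its protein belongs to every large subunit.

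The place of a gene in this order also moved with how it could be counted. The authors' exonic length covers every annotated exon of a gene, and it was a median of 2.31 times the length of the main mRNA. Dividing TMM-scaled CPM by the mRNA length kept Rpl4 first (232 CPM per kb) and put Rps14 and Rpl32 next, while Rplp1 moved to rank 6. Rank correlation between both scales over the 77 genes was 0.777, a description across genes that share the libraries.

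Overlap with other annotated genes was large for Rpl24 and Rps10, the lowest in TPM of the genes whose proteins every ribosome needs. A read on exons of 2 genes cannot be given to both. Of the mRNA of Rps10, 91.6% lay on exons of Gm49804, and Rps10 was listed at 6.77, 6.92 and 8.29 TPM at 6 months and 7.82, 6.62 and 8.37 TPM at 24 months. Of the mRNA of Rpl24, 71.5% lay on exons of Gm28037, and its mean was 3.57 TPM. For Rpl23a the share was 55.4% (Tlcd1) and the mean 22.4 TPM. Rpl35 and Rpl13a had shares of 68.3% (Wdr38) and 59.3% (Gm45713) and ranks of 45 and 68 of 83 per kb of mRNA. The part of these overlaps in the levels was not tested.

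**Figure D2:**
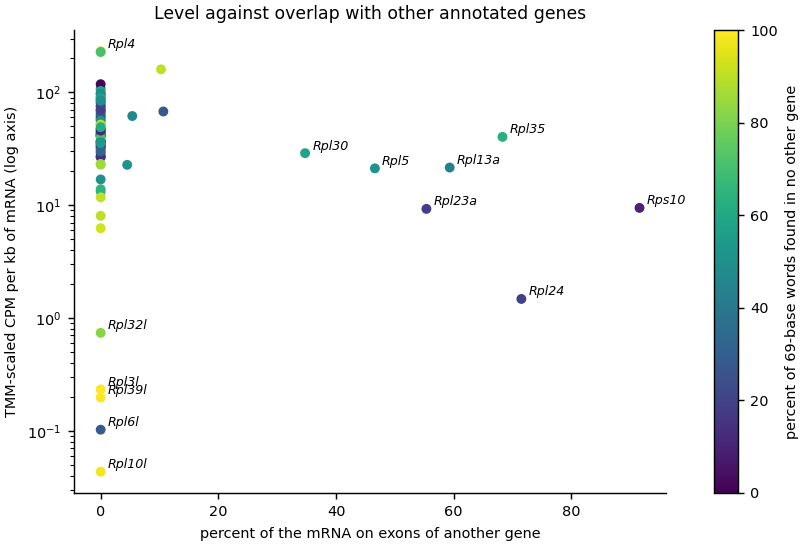
TMM-scaled CPM per kb of mRNA (log axis, mean of 6 mice) against the percent of each mRNA that lies on exons of another gene, with the color giving the percent of 69-base words found in no other gene. Rpl24 (71.5%) and Rps10 (91.6%) lie right and low, whereas the low points at 0% are the paralogs and pseudogenes Rpl32l, Rpl3l, Rpl39l, Rpl6l and Rpl10l.

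Many copies of these genes exist in the genome, mostly as processed pseudogenes. The authors' counting options took reads with several positions as fractions but also set a mapping quality limit of 15, which is above what STAR gives such reads. The deposited counts are whole numbers, and how many such reads entered them was not tested. Of the 69-base words of each mRNA (a trimmed read), a median of 50.6% occurred in no other annotated transcript. The median for 78 mitochondrial ribosomal protein genes was 100%. The lowest shares were those of Rps27 (1.44%, shared with Rps27rt), Rpl10 (8.07%) and Rps10 (9.77%), while Rpl3l and Rpl39l were among the 3 genes that shared no word. Across the 77 genes the rank correlation of this share with CPM per kb of mRNA was 0.0699. Rps27 stood at rank 5 with its share of 1.44%. Cytosolic genes had a median of 41.5 CPM per kb of mRNA and mitochondrial ones 23.2 CPM per kb.

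The first question by age was whether the summed level changed. The 83 genes held 0.318%, 0.341% and 0.320% of all counts in the 6-month mice 10, 11 and 17 and 0.356%, 0.340% and 0.329% in the 24-month mice 2, 4 and 5. The ages overlapped (means 0.326% ± 0.0130 and 0.342% ± 0.0136, SD, n = 3; exact permutation test, two-sided, p = 0.3, where 0.1 is the smallest that 3 against 3 allow). Summed TPM was 7197 ± 340 at 6 months and 7202 ± 118 at 24 months. On TMM-scaled CPM the order turned, with 3450, 3606 and 3399 at 6 months and 3236, 3179 and 3172 at 24 months (p = 0.1 in the same exact permutation test). A change in the total was therefore not resolved apart from the scaling.

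The balance between the subunits varied by little in summed TPM. Summed TPM of 60S over 40S genes was 1.65, 1.64 and 1.68 at 6 months and 1.66, 1.66 and 1.63 at 24 months. The means were 1.66 ± 0.0222 and 1.65 ± 0.0150 (SD, n = 3; exact permutation test, two-sided, p = 0.9). This ratio does not depend on the scaling of the libraries. By median TPM per subunit the ratio was 1.13 ± 0.0413 at 6 months and 1.06 ± 0.0418 at 24 months. The log2 difference was then -0.090, and the ages overlapped (exact permutation test, two-sided, p = 0.2).

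**Figure D3:**
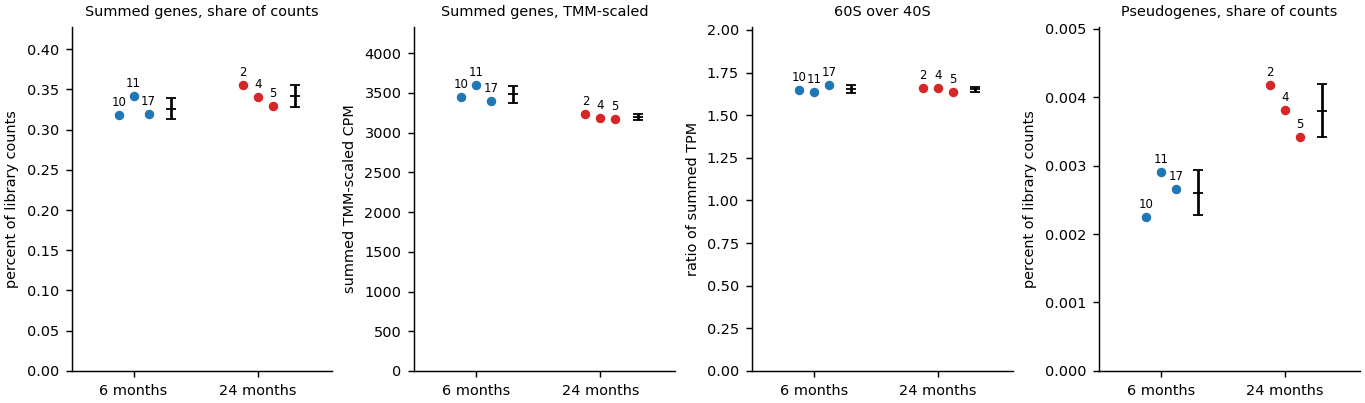
Values per mouse (numbered points) with mean ± SD beside them, for the share of counts on the 83 genes, their summed TMM-scaled CPM, the ratio of summed TPM of 60S to 40S genes and the share of counts on ribosomal protein pseudogenes. The ages overlap in the share of counts and the subunit ratio, and separate in the summed TMM-scaled CPM and the pseudogene share.

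No gene of the 82 tested passed 1% FDR, in edgeR's quasi-likelihood, likelihood ratio and exact tests or in DESeq2. By the quasi-likelihood test 12 genes were lower and 2 higher at 24 months with an unadjusted p under 0.05, which is 14.6% and 2.44% of those tested. The background over all genes tested was 13.1% lower and 17.6% higher, and 26.9% lower and 4.23% higher over the 15761 genes with a mean of at least 1 CPM. Of the 77 ribosomal protein genes at that level, 12 were lower and 0 higher. The quasi-likelihood test called 0% of all genes at 1% FDR, while the likelihood ratio test called 5.18% and DESeq2 0.836%.

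The 77 genes with a mean of at least 1 CPM moved with the bulk of expressed genes. Their log2 fold changes ran from -0.48 to 0.17, with a median of -0.13 where all genes of at least 1 CPM had -0.14 and 412 other short protein-coding genes (exonic length up to 1500 bases, at least 10 CPM) had -0.18. When libraries were scaled by their totals only, the median of the 77 turned to 0.06 and that of all genes of at least 1 CPM to 0.05. The median over all genes tested shifted by 0.19 between these scalings. Relative to genes of at least 1 CPM the 77 stood at 0.01 under either scaling, 34 of them below that median and 43 above it. The standard errors (SE) of the 77 were 0.08 to 0.26, with a median of 0.10. Each SE was worked back from the test, as the absolute log2 fold change over the square root of the F value.

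**Figure D4:**
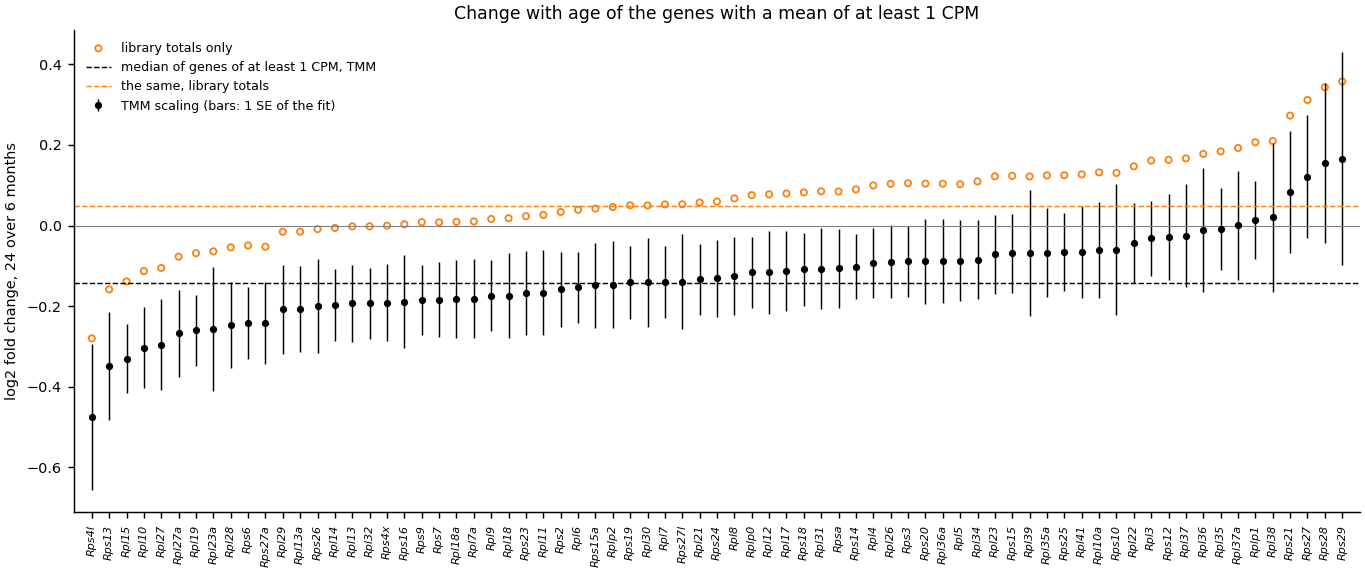
Log2 fold change, 24 over 6 months, of the genes reported here with a mean of at least 1 CPM, with TMM scaling (filled points, bars of 1 SE) and with library totals (open points). Dashed lines give the medians of all genes of at least 1 CPM, -0.14 with TMM and 0.05 with library totals, and the genes lie around the line that belongs to their scaling.

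By ranges, 37 of the 82 genes had all 24-month mice below all 6-month mice on TMM-scaled CPM (45.1%), against 16.2% of all genes tested and 32.5% of those of at least 1 CPM. With library totals it was 2 genes, Rpl15 and Rpl27a (2.44%, against 4.75% and 9.36%). All 24-month mice were above in 2 genes with TMM (2.44%, against 20.0% and 5.32%) and in 11 with library totals (13.4%, against 30.9% and 15.2%). The 77 genes of at least 1 CPM are the like set for the second background. Of these, 37 were below and 0 above with TMM, and 2 below and 8 above with library totals. Under both scalings Rpl15 and Rpl27a were below in all 24-month mice, and the scarce Rpl6l and Rpl39l were above. Rpl6l and Rpl39l reached the minimum of 10 counts only through the 24-month mice.

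At 10% FDR 4 of 82 genes were called, 3 lower and 1 higher at 24 months (4.88%), against 18.4% of all genes tested and 19.7% of those of at least 1 CPM. By direction this background was 8.33% lower and 10.0% higher over all genes tested, and 17.3% lower and 2.43% higher over genes of at least 1 CPM. Of the 77 ribosomal protein genes of at least 1 CPM, 3 were called, all lower. The higher one, Rpl39l, had a lower mean and reached the minimum for testing only through the 24-month mice. Rpl15, a large-subunit protein that binds the rRNA core, had the smallest adjusted p. It had 86.7, 89.4 and 89.0 TPM at 6 months and 74.2, 77.9 and 76.0 TPM at 24 months, which do not overlap. Its log2 fold change was -0.33 (SE 0.09, quasi-likelihood test, adjusted p = 0.0605), and -0.14 with library totals, where it was not called. Rpl15 passed 10% FDR in 6 of 15 settings (adjusted p 0.0515 to 0.312).

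Rpl10, an X-linked protein that joins the large subunit late and completes the peptidyl transferase center, had 58.5, 66.5 and 63.2 TPM at 6 months and 53.6, 53.0 and 58.5 TPM at 24 months. The highest 24-month mouse came just below the lowest 6-month mouse. The log2 fold change was -0.30 (SE 0.10, quasi-likelihood test, adjusted p = 0.0869, range 0.0611 to 0.471 over the settings), and -0.11 with library totals. Its unique share of 8.07% is among the lowest.

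Rpl19, which forms a bridge between the subunits, had 185, 195 and 194 TPM at 6 months and 177, 165 and 176 TPM at 24 months. The log2 fold change was -0.26 (SE 0.09, quasi-likelihood test, adjusted p = 0.0924, range 0.087 to 0.639), and -0.07 with library totals. For these 3 genes the call was lost without any of the mice 10, 11, 17, 2 or 4, when no ribosomal protein gene passed 10% FDR. Without the 24-month mouse 5 these 3 remained called, Rpl39l was lost (adjusted p = 0.172) and Rpl6l was called higher (adjusted p = 0.0771, quasi-likelihood test).

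The other large falls did not pass 10% FDR. Beside Rpl15 and Rpl10, the 5 lowest log2 fold changes among genes of at least 10 CPM were those of Rps13 (-0.35, SE 0.13), Rpl27 (-0.30, SE 0.11) and Rpl27a (-0.27, SE 0.11), each with an adjusted p of 0.116 to 0.132 in the quasi-likelihood test. With library totals these were -0.16, -0.11 and -0.08. Rps13 had 27.9, 32.8 and 25.2 TPM at 6 months and 25.6, 21.3 and 26.0 TPM at 24 months, so that the ages overlapped in TPM. Rpl27a had 22.0, 23.2 and 21.4 TPM against 19.0, 20.0 and 20.9 TPM, without overlap.

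Rps6, the small-subunit protein that S6 kinase phosphorylates downstream of mTOR, had 125, 131 and 131 TPM at 6 months and 120, 120 and 113 TPM at 24 months. Its log2 fold change was -0.24 (SE 0.09, quasi-likelihood test, adjusted p = 0.106), and -0.05 with library totals. All 24-month mice lay below the 6-month mice in TPM.

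Rplp0, the base of the P stalk, was the study's reference gene for quantitative PCR, so its own stability bears on those measurements. It had 163, 178 and 177 TPM at 6 months and 174, 177 and 166 TPM at 24 months, with full overlap. The log2 fold change was -0.12 with TMM (SE 0.09, quasi-likelihood test, adjusted p = 0.387) and 0.08 with library totals. Against the median of genes of at least 1 CPM it differed by less than 1 SE.

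Rpsa, also known as the laminin receptor, had 31.6, 31.9 and 29.9 TPM at 6 months and 30.2, 31.3 and 32.4 TPM at 24 months. The ages overlapped, and the log2 fold change was -0.11 with TMM (SE 0.10, quasi-likelihood test, adjusted p = 0.477) and 0.08 with library totals.

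The highest positive log2 fold changes among genes of at least 10 CPM belonged to Rps29 (0.17, SE 0.26), Rps27 (0.12, SE 0.15), Rps21 (0.08, SE 0.15), Rpl38 (0.02, SE 0.18) and Rplp1 (0.01, SE 0.10). None passed the test (adjusted p from 0.613 to 0.956 in the quasi-likelihood test). Rps29, a zinc-binding protein of the small subunit, had 102, 137 and 53.9 TPM at 6 months (mice 10, 11 and 17) and 125, 110 and 122 TPM at 24 months. The 6-month mouse 17 stood far below and mouse 11 above all others.

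That spread was shared by the genes with the shortest coding sequences. Of the 75 genes with a coding sequence and a mean above 5 CPM, 10 have a coding length of at most 300 bases, a limit set after the values were seen. They are Rpl41, Rpl39, Rps29, Rps28, Rpl38, Rps21, Rps27, Rps27l, Rpl37a and Rpl37. In the 6-month mouse 17 their log2 CPM (library totals) deviated from the mean of the 6 mice by a median of -0.42, with a range of -0.98 to -0.05. The 65 longer genes deviated by -0.03.

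The lowest deviation was that of Rps29 and the highest that of Rps27l, the paralog of Rps27 with the same coding length. In the 24-month mice 2, 4 and 5 the medians of the 10 genes were 0.16, 0.02 and 0.17, and in the 6-month mice 10 and 11 they were -0.07 and 0.14. The rank correlation of coding length with the deviation was 0.553 across the 75 genes in mouse 17 and -0.52 in the 24-month mouse 5. Each deviation is from the gene's mean over all mice, mouse 17 included. A low value in mouse 17 therefore raises those of the other mice, whose medians and correlations are not separate observations. The 9 other protein-coding genes of at least 10 CPM with up to 600 exonic bases had a median deviation of -0.10 in mouse 17. They were chosen by exonic and not coding length, under a limit that most of the 10 genes exceed, so they are not a matched set.

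With all 6 mice 6 of these 10 genes had a positive log2 fold change, and without mouse 17 it was 0 of 10. Their median went from 0.01 to -0.13. The positive signs of Rps29, Rps27, Rps21 and Rpl38 were lost without mouse 17.

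**Figure D5:**
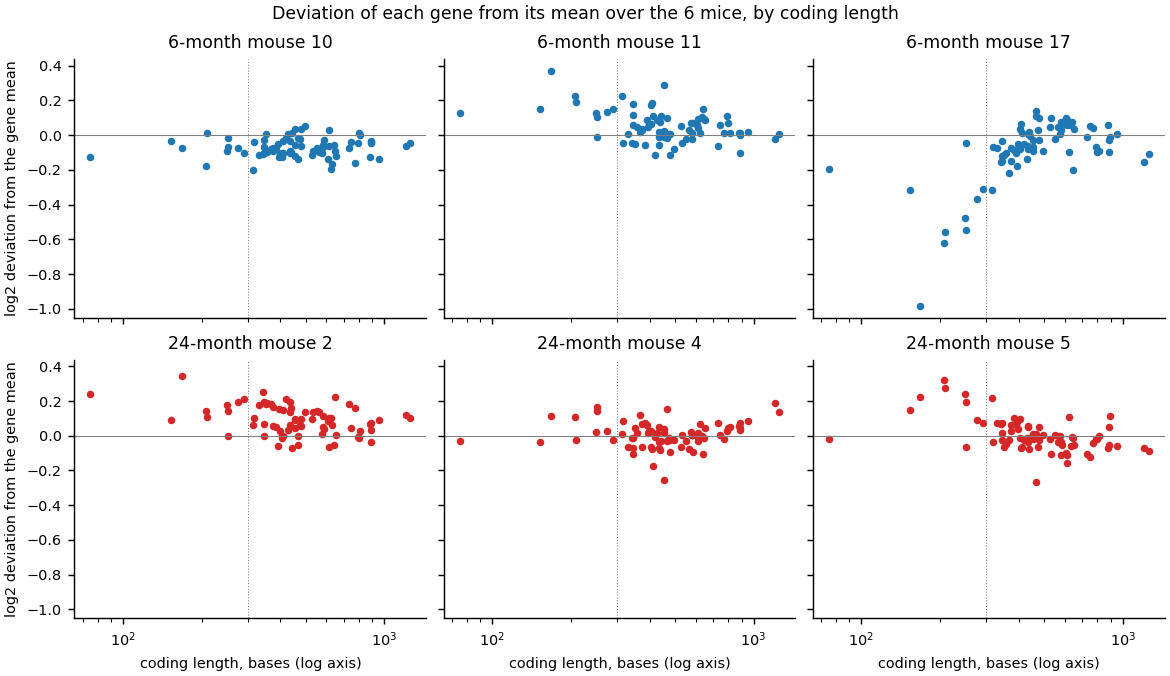
Deviation of log2 CPM (library totals) from the gene's mean over the 6 mice against coding length (log axis) for 75 genes, in a panel for each mouse, with a dotted line at 300 bases. In the 6-month mouse 17 the points fall below the line at 0 as coding length shrinks, down to -0.98 for Rps29.

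Groups of genes with a shared role were described by their counts, to be read against the 26.9% lower and 4.23% higher at an unadjusted p under 0.05 among genes of at least 1 CPM. In groups of 4 or 9 genes a count of 0 or 1 does not set them apart from that background. In the P stalk (Rplp0, Rplp1, Rplp2 and Rpl12), which activates elongation factors, 0 of 4 passed an unadjusted p under 0.05, and the median log2 fold change was -0.12 with TMM and 0.08 with library totals. Rpl5 and Rpl11, which carry the 5S rRNA and can bind MDM2 when assembly fails, had -0.09 (SE 0.10) and -0.17 (SE 0.11). Neither passed.

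Of the 9 genes whose mutations cause Diamond-Blackfan anemia in this list (among them Rps7, Rps10, Rps19, Rps24, Rps26, Rpl5, Rpl11 and Rpl35a) none passed an unadjusted p under 0.05. Their median log2 fold change was -0.14 with TMM and 0.05 with library totals. Of the 4 X-linked genes Rpl10 alone passed an unadjusted p under 0.05, and Rps4x, Rpl36a and Rpl39 had log2 fold changes of -0.19, -0.09 and -0.07.

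The study named 9 ribosomal proteins in its protein comparison between these ages (Rps10 and Rps26 of the small subunit, and Rpl7a, Rpl8, Rpl9, Rpl18, Rpl19, Rpl23a and Rpl38 of the large). It chose the list on its own animals, so the list is not independent evidence of a direction. In mRNA 1 of the 9, Rpl19, had an unadjusted p under 0.05 (against 13.1% lower over all genes tested and 26.9% over those of at least 1 CPM). The median log2 fold change was -0.17 with TMM and 0.02 with library totals.

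Shares within the set, which do not depend on scaling, moved little. Of the 83 genes, 8 had a lower share of the summed TPM in all 24-month mice than in all 6-month mice and 6 a higher share. Divided by the same sum, 8.37% of all genes tested were lower and 23.8% higher, and 16.6% and 8.71% of those of at least 1 CPM. The lower ones were Rpl10, Rpl15, Rpl19, Rpl27, Rpl27a, Rps13, Rps4x and Rps6. Rpl15 held 1.22%, 1.18% and 1.28% of the summed TPM at 6 months and 1.01%, 1.10% and 1.06% at 24 months.

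Among the higher shares were those of Rplp1 and of the scarce Rpl24, Rpl39l, Rpl6l and Rpl10l. Rplp1 held 5.37%, 5.17% and 5.25% at 6 months and 6.08%, 5.38% and 5.75% at 24 months, where the nearest mice of the ages almost met. No test was made of these shares.

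Paralogs gave a further comparison within each library. Rps27l made up 22.6%, 20.6% and 28.5% of the counts on Rps27l and Rps27 at 6 months and 20.3%, 21.8% and 19.0% at 24 months. The high value again came from mouse 17, in which Rps27 was low (965 counts) and Rps27l was not (384 counts). The exact permutation test gave p = 0.2, or 0.4 adjusted over the 2 pairs that could be tested.

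Rps4l, typed as a transcribed processed pseudogene, made up 13.6%, 14.3% and 15.4% of the counts on Rps4l and Rps4x at 6 months and 15.4%, 10.8% and 10.2% at 24 months. The ages overlapped through the 24-month mouse 2 (exact permutation p = 0.4, adjusted 0.4). The log2 fold change of Rps4l itself, -0.48 (SE 0.18, quasi-likelihood test, adjusted p = 0.115), was the lowest among the 77 ribosomal protein genes of at least 1 CPM, and it was -0.28 with library totals.

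The other paralogs were near the limit of detection. Rpl39l had 0, 2 and 1 counts in the young and 4, 4 and 11 counts in the old mice, and it was the 1 ribosomal protein gene called higher at 10% FDR (quasi-likelihood test, adjusted p = 0.0906, range 0.0308 to 0.206, in 6 of 14 settings). Rpl6l had 0, 1 and 2 counts against 5, 7 and 3 (adjusted p = 0.114), and edgeR's likelihood ratio and exact tests called it higher as well (adjusted p = 0.0443 and 0.0747). Rpl10l had 0, 0 and 0 against 3, 5 and 1 and was below the minimum for testing. Rpl39l and Rpl6l reached that minimum only through their counts at 24 months, so their calls are not separate evidence of a rise. Such low counts give no usable fold, and the 24-month libraries also had counts on more genes in general (40208 to 43561 against 33974 to 35651), whose part in these values was not tested.

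Pseudogenes of the same genes had few counts. On 321 rows named as their pseudogenes, of which 288 had a count, lay 0.00225%, 0.00291% and 0.00265% of counts at 6 months and 0.00418%, 0.00381% and 0.00341% at 24 months. All 24-month mice lay above all 6-month mice, by 1.46-fold (log2 0.55, two-sided exact permutation p = 0.1, again the smallest possible). On this scale of library totals the median log2 fold change of all genes tested was 0.33, and 30.9% of them had all 24-month mice above. Per count on the 83 genes the pseudogenes had 0.709% to 0.853% at 6 months and 1.04% to 1.18% at 24 months. Whether these counts came from the pseudogenes or from reads of the parent genes was not tested.

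Some symbols fall outside the rule although their products belong to or resemble ribosomal proteins. Of 8 such genes, among them Fau, Rps3a1, Rpl36al, Rpl22l1, Rpl7l1, Rack1 and Rps27rt, none passed an unadjusted p under 0.05 (background 26.9% lower and 4.23% higher). Their median log2 fold change was -0.13 with TMM and 0.06 with library totals. Rack1, a scaffold on the small subunit, had -0.12 (SE 0.09), and Rps3a1, the small-subunit gene with a mean of 157 TPM, had -0.13 (SE 0.09). Rps27rt had 0.32 (SE 0.22).

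Elongation factors and other TOP mRNAs were then set beside the ribosomal proteins, with fold changes on the TMM scale, on which the neuron markers were lower too. Of 18 genes, 10 had an unadjusted p under 0.05, all lower, and 4 passed 10% FDR, against 26.9% and 17.3% lower among genes of at least 1 CPM. The 4 were the TOP mRNA Tpt1 (log2 fold change -0.32, SE 0.10), the poly(A)-binding protein Pabpc1 (-0.30, SE 0.09) and the initiation factor subunits Eif3h (-0.26, SE 0.09) and Eif3l (-0.26, SE 0.09). Eef1a1 and Eef2, the main elongation factors, had -0.12 (SE 0.09) and -0.04 (SE 0.08). The median of the list was -0.22, which is -0.07 relative to genes of at least 1 CPM, and -0.02 with library totals.

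Of 30 genes of ribosome assembly and rRNA synthesis, 15 (all lower) had an unadjusted p under 0.05 and 6 passed 10% FDR, where 26.9% and 17.3% of genes of at least 1 CPM did so in that direction. The 6 were Polr1d, a subunit of RNA polymerases I and III (log2 fold change -0.45, SE 0.11), Ltv1 (-0.42, SE 0.11) and Tsr1 (-0.30, SE 0.11) of small-subunit maturation, and the nucleolar factors Nol6 (-0.42, SE 0.10), Nop2 (-0.35, SE 0.11) and Nop58 (-0.32, SE 0.10). The median was -0.22 with TMM and -0.03 with library totals, and -0.08 relative to genes of at least 1 CPM under both. Fbl, the rRNA methyltransferase fibrillarin, had -0.06 (SE 0.12).

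In the mTOR list, 6 of 16 genes (all lower) had an unadjusted p under 0.05 and 4 passed 10% FDR, against the same 26.9% and 17.3%. These were Mtor itself (-0.38, SE 0.13), its activator Rheb (-0.30, SE 0.10), its inhibitor Tsc2 (-0.35, SE 0.10) and the transcription factor Mycn (-0.79, SE 0.14). Larp1, the TOP-binding repressor, had 0.29 (SE 0.14, quasi-likelihood test, adjusted p = 0.191). The median of the list was -0.18 with TMM, 0.01 with library totals and -0.04 relative to genes of at least 1 CPM under both. The 4 called genes include an activator and an inhibitor of the pathway.

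The mitochondrial ribosome, which is built from other genes, was the nearest comparison. Of its 78 protein genes 30 (all lower) had an unadjusted p under 0.05, above the 26.9% of genes of at least 1 CPM, and 10 passed 10% FDR, below the 17.3%. Among the 10 were Mrpl44 (-0.39, SE 0.10) and Mrps17 (-0.37, SE 0.09). On TMM-scaled CPM 52 of 78 genes had all 24-month mice below all 6-month mice (background 32.5%), and with library totals it was 4 (background 9.36%). Their median log2 fold change was -0.20 with TMM and -0.00439 with library totals, and relative to genes of at least 1 CPM it was -0.05 under both, where the 77 cytosolic genes had 0.01. The difference between these medians was not tested.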

How the data were processed

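RNA-seq of mouse cortex was analysed in 3 mice per age. Per the submitters' processing notes and the methods, the authors trimmed reads with Trim Galore 0.6.4, mapped them to GRCm38 with STAR 2.7.3a and counted exonic reads with featureCounts (Subread 2.0.0, taken as unstranded, its default). They deposited whole-number counts and TPM, for which they divided by exonic length. The featureCounts options took reads with several positions as fractions and required a mapping quality of 15. Pooled libraries were size-selected on a gel.

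Counts were tested with edgeR 4.0.16 (R 4.3.3, TMM, at least 10 counts over 6 libraries, no covariates). On simulated data it recovered the sign and size of planted changes larger than those of the ribosomal protein genes of at least 1 CPM. That check did not cover changes as small as theirs or scaling factors that differ by age. Alternatives were other tests (DESeq2 1.42.0 among them), scalings and filters, and each mouse left out. Values per mouse were tested by exact permutation (scipy 1.17.1). Lengths, overlaps and 69-base words came from GENCODE vM21, not the authors' release. Genes above 5 CPM had 141 to 13034 counts per mouse.

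Named genes were the 5 of highest TPM, the 5 lowest and 5 highest fold changes of at least 10 CPM, those past 10% FDR, Rplp0, Rpsa, Rps6, paralogs, genes under 1 CPM and the fixed groups; a few genes are left out of the text and plots. The members and lists were chosen with earlier results of these data known. Other marker lists (microglia, oligodendrocyte precursors, pericytes, endothelium, erythrocytes, meninges, choroid plexus, B cells) held 2 to 5 genes, with at most 2 past 10% FDR each. The background was 18.4% of all genes tested. Of 4 B and plasma cell markers 2 were called, both higher (median log2 fold change of the list 1.63). Of 5 microglia markers 1 was called lower and 1 higher, and of 5 erythrocyte markers 1 was called lower.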

Additional observations from a re-analysis of the deposited data

How the results depend on the processing

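No paired analysis was possible because the ages share no replicate number. No ribosomal protein gene passed 1% FDR under any alternative (leave-one-out range 0 to 0). Shares over all genes are not given for most of the settings that follow. The changes in count below therefore do not set ribosomal protein genes apart from other genes. Genes past 10% FDR fell from 4 to 1 with DESeq2, library totals or TMM factors from genes of at least 1 CPM, and to 0 with filterByExpr or no filter (0 to 4 with 1 mouse left out). Genes lower at p under 0.05 fell from 12 to 4 with the likelihood ratio or exact test, 7 with DESeq2, 0 with library totals or TMM from genes of at least 1 CPM, 1 with filterByExpr and 5 with no filter. With 1 mouse left out they ranged from 1 (without 6-month mouse 11, and also without 24-month mouse 4) to 11, with 5 when mouse 17 was left out. Genes higher at p under 0.05 fell from 2 to 1 with DESeq2 and 0 with filterByExpr, and rose to 3 with no filter (1 to 2 with 1 mouse left out). Of the 2, Rpl39l was removed by filterByExpr and so was not tested there. The median log2 fold change of -0.12 over the 82 genes turned to 0.071 with library totals and to 0.036 with TMM from genes of at least 1 CPM, and moved to -0.014 with filterByExpr (-0.133 to -0.064 with 1 mouse left out). The changes with another scaling follow from the factors themselves. A filter also changes the genes that set the TMM factors. With filterByExpr, Rps13 moved from -0.35 to -0.24, Rpl15 from -0.33 to -0.22 and Rplp0 from -0.12 to -0.0021. The cause of the other changes was not tested. Less the median of genes of at least 1 CPM, a difference added after seeing the data, the median of the 82 genes was 0.023. It ranged from -0.0096 (without the 24-month mouse 2) to 0.046. Genes with all 24-month mice below fell from 37 to 2 with library totals and 3 with TMM from genes of at least 1 CPM (24, without the 24-month mouse 4, to 47), and genes above rose from 2 to 11 and 8 (2 to 5, with 5 when mouse 11 was left out and 4 when mouse 4 was). With fewer mice the ranges of the ages separate more easily, so a rise in these counts with 1 mouse left out does not show a stronger difference.

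The summed level (log2 0.067) turned to -0.12 on TMM-scaled CPM and ranged from 0.037 to 0.10 with 1 mouse left out. The subunit ratio of summed TPM (log2 -0.00344) ranged from -0.0115 to 0.00726 with 1 mouse left out. It was positive when mouse 17 was left out and, at 0.00405, when mouse 5 was. By median TPM per subunit it was -0.090. The pseudogene share kept its sign (log2 0.45 to 0.63), as did the shares of Rps27l (-0.32 to -0.09) and Rps4l (-0.46 to -0.16). With 1 mouse left out the log2 fold changes ran from -0.13 to 0.51 (Rps29), -0.045 to 0.29 (Rps27), -0.068 to 0.25 (Rps21) and -0.17 to 0.20 (Rpl38), each lowest when the 6-month mouse 17 was left out, and from -0.032 to 0.11 (Rplp1), lowest when the 24-month mouse 2 was. Rpl38 also turned when mouse 5 was left out (-0.082) and Rplp1 when mouse 17 was (-0.013). With library totals and with TMM from genes of at least 1 CPM, Rplp0 turned to 0.076 and 0.040, Rpsa to 0.084 and 0.048 and Rps27l to 0.053 and 0.016, and Rpsa turned to 0.0064 with filterByExpr. With 3 mice per age and a median SE of 0.10, changes of ribosomal protein genes under about 1.15-fold lie within 2 SE.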
